A study of Homo sapiens with 6 samples.

Results

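The genes described here bear on the angiogenic balance around the retinal pigment epithelium (RPE). They are 4 ligands of the vascular endothelial growth factor (VEGF) family (VEGFA, VEGFB, VEGFC and PGF) and the receptors FLT1 and KDR. The co-receptors NRP1 and NRP2 and the angiogenesis inhibitors SERPINF1 and THBS1 complete the set. The members were chosen by name, and all 10 were found among the 33496 genes listed for each library. The libraries are RNA-seq of total RNA from ARPE-19, a human cell line established from RPE, labelled as wild type. Erastin, an inducer of ferroptosis that blocks cystine uptake, was given to the cells of all 6 libraries (5 μM, 24 h). Of these libraries, 3 came from cells that received erastin without vitamin K1 (Era). The other 3 came from cells that had vitamin K1 (VK1, 10 μM) as a pretreatment (Era+VK). As erastin-free cells were not analysed here, no value below says what erastin did. The question asked of these genes is whether VK1 pretreatment moved the balance of pro-angiogenic and anti-angiogenic transcripts in erastin-treated RPE cells.

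VEGF ligands are secreted dimers that bind receptor tyrosine kinases on endothelial cells. VEGFA acts mainly through KDR (VEGFR2), while FLT1 (VEGFR1) also binds VEGFB and placental growth factor (PGF), and VEGFC is best known for driving lymphatic vessel growth through FLT4. Neuropilins (NRP1, NRP2) hold VEGF and class 3 semaphorins at the cell surface and have no kinase domain of their own. In the eye, RPE secretes VEGFA towards the choroid and the anti-angiogenic serpin PEDF (the product of SERPINF1) towards the retina. Thrombospondin 1 (THBS1) is a matrix glycoprotein that restrains endothelial cells through CD36 and CD47.

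The study measured VEGFA by qPCR as well. It reports VEGFA raised by erastin and restored under VK1 in qPCR, western blot and ELISA, and lower with VK1 in its RNA-seq. Its qPCR primers are shown because they mark the part of the VEGFA transcript to which that assay refers.
VEGFA forward: agggcagaatcatcacgaagT
VEGFA reverse: agggtctcgattggatggca
Placed on the GENCODE 29 transcripts of GRCh38, they enclose 75 bases of VEGFA on chromosome 6. Both sites were found in 29 of the 32 annotated VEGFA transcripts, and in 26 of them they lie within the coding sequence. In 28 of the 29, the forward primer starts at 43774373 in exon 2, and its last base, in capitals, is the first of exon 3 at 43777469. The site of the reverse primer lies in the same exon as that base, from 43777504 to 43777523. The RNA-seq value, in contrast, is a single number for the whole VEGFA gene, so the splice forms of VEGFA could not be separated here.

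Promoters are shown for 3 members with the levels described below: VEGFC and THBS1, whose Era+VK libraries were all below the Era libraries, and VEGFB, whose groups overlapped. The set of RefSeq promoter windows used here (GRCh38.p14) held 7 of the 10 members. VEGFA, NRP1 and SERPINF1 were not in that set. Each sequence holds the 250 bases before the RefSeq transcription start, 5′ to 3′ on the strand of the gene. These starts need not match the GENCODE gene positions given below. The VEGFB window reaches 64234583, past the GENCODE start at 64234538. The VEGFC window begins at 176792923, while its GENCODE gene, on the minus strand, ends at 176792727. Capitals mark GCGTG and TGACG on either strand. GCGTG is a form of the core bound by hypoxia-inducible factors (HIF), and TGACG is the shorter motif of the cAMP response element.
VEGFC, chr4:176792923-176793172, minus strand: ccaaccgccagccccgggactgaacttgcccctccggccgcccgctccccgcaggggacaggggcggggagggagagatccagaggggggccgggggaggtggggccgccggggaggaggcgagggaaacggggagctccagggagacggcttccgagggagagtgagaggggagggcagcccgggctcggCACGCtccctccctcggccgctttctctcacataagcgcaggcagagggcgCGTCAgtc
THBS1, chr15:39580829-39581078, plus strand: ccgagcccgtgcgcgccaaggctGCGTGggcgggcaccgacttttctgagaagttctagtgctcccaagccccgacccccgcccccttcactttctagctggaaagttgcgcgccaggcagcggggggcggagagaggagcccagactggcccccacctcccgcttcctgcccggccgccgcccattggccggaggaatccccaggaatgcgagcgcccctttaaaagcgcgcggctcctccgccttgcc
VEGFB, chr11:64234334-64234583, plus strand: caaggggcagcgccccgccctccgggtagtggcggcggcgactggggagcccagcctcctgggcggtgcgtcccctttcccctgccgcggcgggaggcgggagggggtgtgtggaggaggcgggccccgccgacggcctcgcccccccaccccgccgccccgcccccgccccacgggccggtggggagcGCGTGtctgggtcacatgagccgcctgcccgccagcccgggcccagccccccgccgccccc
All 3 windows contain GCGTG, which is present in 32.2% of 35116 promoter windows of the same length. It is in windows of 5 of the 7 members, not in those of KDR and NRP2. The other form of the HIF core, ACGTG, is in none of the 7 members' windows and in 18.5% of all windows. TGACG is present in the VEGFC window, as it is in 21.2% of all windows, and is absent from those of THBS1 and VEGFB. The composite site TGATGNAA, read by ATF4 with C/EBP partners, is in none of the 7 members' windows and in 3.14% of all windows. Of the 7, only FLT1 has the full element TGACGTCA, which 1.65% of windows hold.

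Levels are given in FPKM, a unit that divides the fragments of a gene by its transcript length and by the mapped fragments of the library, which allows genes of different length to be compared. THBS1 was the most abundant member, ranking 533rd among all listed genes by its mean, and VEGFB and VEGFA ranked 2143rd and 2488th. VEGFC followed at 5.29 to 6.97 FPKM and NRP1 at 2.70 to 3.73 FPKM. The other 5 members stayed below 1 FPKM in every library. In the order of mean levels, the ranges over the 6 libraries overlapped between VEGFB and VEGFA, between SERPINF1 and KDR, between KDR and NRP2, and between PGF and FLT1. VEGFB was nevertheless above VEGFA in each of the 6 libraries. The ranges of all other neighbours in the order were separate.

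**Figure D1:**
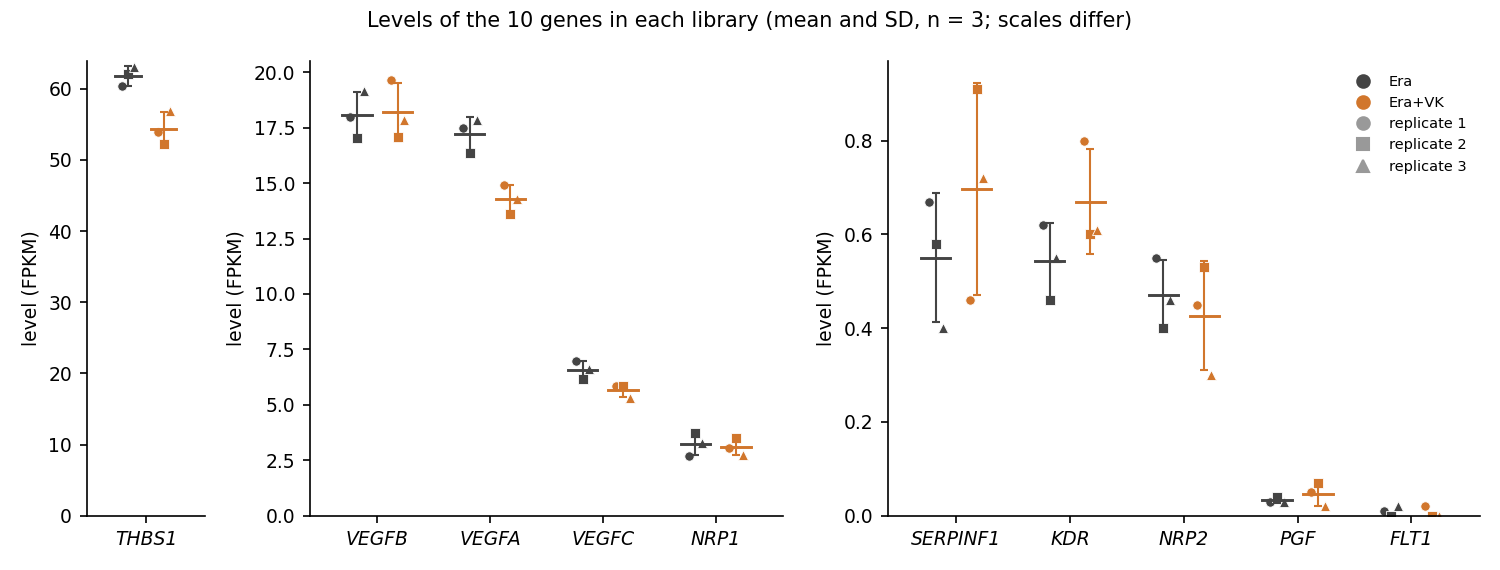
Level of each of the 10 genes in FPKM (vertical axes, with a different scale in each panel) in 3 Era (dark) and 3 Era+VK (orange) libraries; symbols show the replicate number, and lines and bars the mean and SD (n = 3), left out for FLT1, which is listed at 0 in some libraries. The Era+VK points lie below all Era points for THBS1, VEGFA and VEGFC and mix with them for the other genes.

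The culture carried only part of an RPE profile. Of 14 RPE markers, 12 were listed. The transcription factors MITF and OTX2 were at 15.49 to 18.59 FPKM and at 27.50 to 31.35 FPKM, and the keratins KRT8 and KRT18 were above 170 FPKM. MITF was higher in every Era+VK library than in any Era library, by 0.19 on the log2(FPKM + 1) scale, and KRT8 by 0.14. They were the 2 of 7 tested RPE markers with separate groups, against 22.1% of all genes tested (15.1% higher in Era+VK). Of the 7, 4 had a log2 fold change above 0 and 3 below, with a median of 0.05, and none passed the test; their part in the results below was not tested. RPE65, the visual cycle isomerase, was at 0.02 FPKM or less in every library, and RLBP1 at 0.29 FPKM or less. BEST1 varied from 0.60 to 56.98 FPKM over the 6 libraries. Its gene overlaps FTH1, which is on the opposite strand at 3288.09 to 3752.97 FPKM, and the counting is not stated to use strand. Whether this overlap bears on the BEST1 values was not tested. Era+VK replicates 2 and 3 stood apart in another way. The 12 erythroid markers summed to 0.07 to 0.21 FPKM in Era, to 0.14 FPKM in Era+VK replicate 1 and to as much as 239.7 FPKM in the other Era+VK libraries, where the fetal globin gene HBG2 alone was at 101.77 and 100.25 FPKM. The part of these transcripts in the results below was not tested.

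Each gene with a mean of at least 1 FPKM, 11981 in all, was tested in limma for a difference between Era+VK and Era, using log2(FPKM + 1) and a moderated variance with a trend. The p-values were adjusted by Benjamini-Hochberg over all of these genes. Because 1 is added before taking logs, log2 fold changes of weakly expressed genes come out too small. Of the 10 members, 5 reached that minimum: VEGFA, VEGFB, VEGFC, NRP1 and THBS1. None of the 5 had an adjusted p under 0.05 in limma, against 0.618% of all genes tested. With no adjustment, 3 of the 5 had a p under 0.05 in limma, all lower in Era+VK, against 15.8% of all genes in either direction and 5.42% lower. The same 3 genes, VEGFA, VEGFC and THBS1, were the members whose groups did not overlap, against 22.1% of all genes in either direction and 7.04% lower. The median log2 fold change was -0.18 over the 5 members and 0.03 over all genes tested. Whether lower values reflect less RNA per cell or fewer cells that carry the transcript cannot be told apart in these bulk samples. The study's figure legend describes its data as averages of 3 independent experiments. It does not say whether each library came from a separate culture, so all p-values measure the spread between these libraries.

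Among the ligands, VEGFA (ENSG00000112715; GRCh38 chromosome 6, 43770184 to 43786487), the principal endothelial mitogen of the family, was at 17.48, 16.38 and 17.83 FPKM in Era, against 14.92, 13.62 and 14.30 FPKM in Era+VK. The highest Era+VK library, replicate 1, was below the lowest Era library. The mean was 17.2 ± 0.757 FPKM in Era, against 14.3 ± 0.650 FPKM in the Era+VK group (SD, n = 3 each), a ratio of 0.829. On the log2(FPKM + 1) scale the difference was -0.25 (95% interval -0.38 to -0.13), the 188th lowest p of all genes tested, with an adjusted p of 0.0868 in limma. An exact permutation test of the FPKM gave a two-sided p of 0.1, which is the smallest that 3 libraries against 3 can give. Without the 2 libraries that held globin transcripts, which leaves Era+VK replicate 1 alone in its group, the difference was -0.20.

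VEGFB (ENSG00000173511; chromosome 11, 64234538 to 64238793), a ligand of FLT1 that is linked more to metabolism and cell survival than to vessel growth, was at 18.00, 17.04 and 19.16 FPKM in Era, against 19.64, 17.10 and 17.85 FPKM in Era+VK. The groups overlapped, and the highest value was that of Era+VK replicate 1, the library without globin transcripts. The difference on the log2(FPKM + 1) scale was 0.01, with a 95% interval from -0.14 to 0.16 (adjusted p = 0.963 in limma). It was 0.12 without the 2 libraries with globin transcripts, with Era+VK represented by replicate 1 alone. Whether VEGFB differed in its change from VEGFA or VEGFC was not tested.

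VEGFC (ENSG00000150630; chromosome 4, 176683538 to 176792727), the lymphangiogenic ligand, was at 6.97, 6.18 and 6.62 FPKM in Era, against 5.83, 5.83 and 5.29 FPKM in Era+VK. Every Era+VK library was below every Era library, by a narrower gap than for VEGFA. The difference on the log2(FPKM + 1) scale was -0.19 (95% interval -0.33 to -0.05, adjusted p = 0.20 in limma), and the ratio of the mean FPKM was 0.857. PGF (ENSG00000119630; chromosome 14, 74941834 to 74955784) was at 0.02 to 0.07 FPKM and was not tested. VEGFD, the remaining ligand of the family, was at 0.03 FPKM or less.

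Since all ligands of a library share its scaling, their proportions do not depend on it. VEGFA made up 41.2%, 41.3% and 40.9% of the summed FPKM of the 4 ligands in the Era libraries, and 36.9%, 37.2% and 38.2% in the Era+VK libraries. The share of VEGFB was 42.4% to 43.9% in Era and 46.7% to 48.6% in Era+VK, and again the groups did not overlap. Shares of a common sum depend on each other, and VEGFB itself had means of 18.07 and 18.2 FPKM with overlapping groups. The share of VEGFC was 15.7% ± 0.631 in Era and 14.8% ± 0.964 in Era+VK (SD, n = 3 each), with overlapping groups. VEGFA was thus at 0.931 to 0.971 times the FPKM of VEGFB in Era, and at 0.760 to 0.801 times in Era+VK. Era+VK replicate 1, the library without globin transcripts, had the lowest VEGFA share of all. The summed ligand level was 41.9 ± 2.06 FPKM in Era, against 38.2 ± 2.01 FPKM in Era+VK, and the groups overlapped. These shares are descriptions of values chosen after the single genes had been seen, and were not tested.

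**Figure D2:**
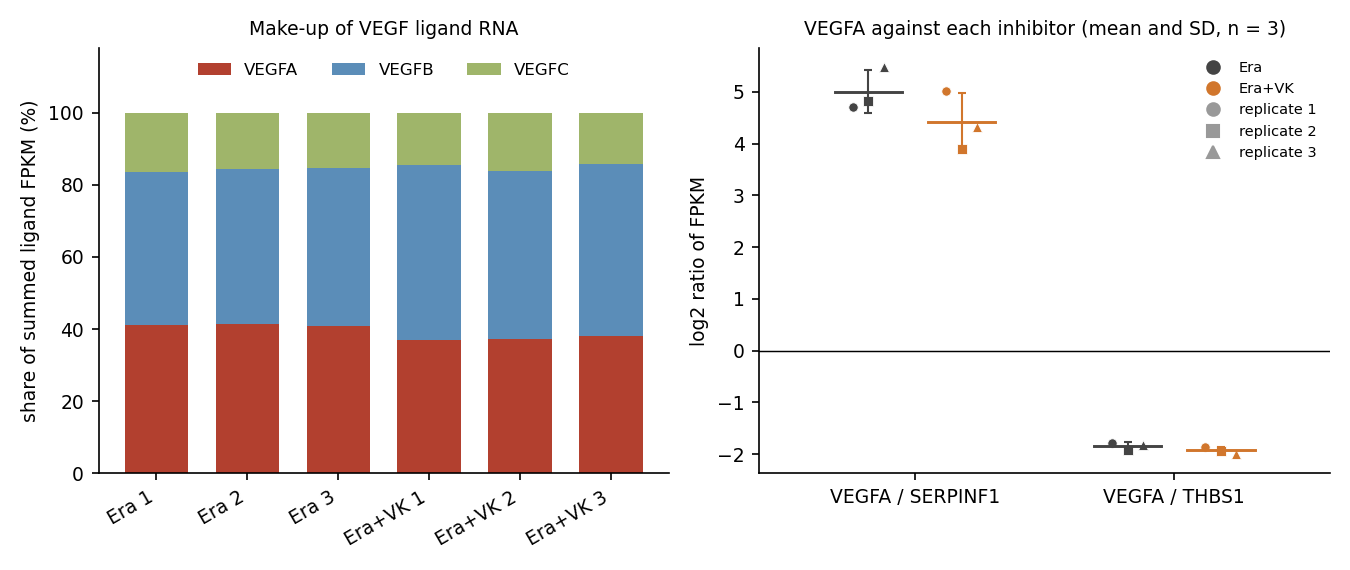
Left, the share of each ligand in the summed ligand FPKM of each library, in percent; PGF, at 0.07 FPKM or less, is too small to draw. Right, the log2 ratio of VEGFA to each inhibitor by library, with the mean and SD (n = 3): the VEGFA share is 40.9% to 41.3% in Era and 36.9% to 38.2% in Era+VK, while both ratios overlap between the groups.

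Receptors for these ligands were scarce in the cells that made them. FLT1 (ENSG00000102755; chromosome 13, 28300344 to 28495145) was listed at 0.01, 0 and 0.02 FPKM in Era, against 0.02, 0 and 0 FPKM in Era+VK. KDR (ENSG00000128052; chromosome 4, 55078259 to 55125595), the main signalling receptor for VEGFA, was at 0.62, 0.46 and 0.55 FPKM in Era, against 0.80, 0.60 and 0.61 FPKM in Era+VK. The groups overlapped, since Era replicate 1 lay just above Era+VK replicates 2 and 3. The exact permutation test gave a two-sided p of 0.3 for KDR, and its highest value was in the Era+VK library without globin transcripts. FLT4, the receptor of VEGFC, was at 0.05 FPKM or less.

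Of 10 endothelial markers, 9 were listed, and each stayed below 1 FPKM. The cadherin gene CDH5 was at 0.02 FPKM or less, and the angiopoietin receptor gene TEK at 0.01 FPKM or less. The marker list summed to 1.32 to 1.47 FPKM in Era and to 0.88 to 0.98 FPKM in Era+VK. Most of the sum in Era was ROBO4, at 0.76 to 0.86 FPKM, against 0.26 to 0.55 FPKM in Era+VK. ROBO4 had separate groups, and its mean was lower in Era+VK while that of KDR was higher. Among all genes tested, 22.1% had separate groups, but ROBO4 was too low to be tested. CDH5, TEK, TIE1, PECAM1 and VWF had overlapping groups. Small differences at such levels cannot be judged here.

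The co-receptor NRP1 (ENSG00000099250; chromosome 10, 33177492 to 33336262) was at 2.70, 3.73 and 3.26 FPKM in Era, against 3.05, 3.50 and 2.75 FPKM in Era+VK, the most abundant VEGF-binding receptor of the members. Its libraries overlapped fully, and the difference on the log2(FPKM + 1) scale was -0.04 with a wide 95% interval of -0.28 to 0.20 (adjusted p = 0.882 in limma), an interval that includes the estimate for VEGFA. NRP2 (ENSG00000118257; chromosome 2, 205681990 to 205798133), which also serves VEGFC, was at 0.30 to 0.55 FPKM with overlapping groups (exact permutation test, two-sided p = 0.6).

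The inhibitors stood at opposite ends of the range of levels. THBS1 (ENSG00000137801; chromosome 15, 39581079 to 39599466) was at 60.33, 62.14 and 63.11 FPKM in Era, against 53.97, 52.25 and 56.88 FPKM in Era+VK. All Era+VK libraries were below all Era libraries, the same direction as VEGFA. The mean was 61.9 ± 1.41 FPKM in Era, against 54.4 ± 2.34 FPKM in the Era+VK group (SD, n = 3 each), and the difference on the log2(FPKM + 1) scale was -0.18 (95% interval -0.29 to -0.08, adjusted p = 0.139 in limma). An antisense transcript and FSIP1 overlap THBS1 on the opposite strand, at 1.58 FPKM or less.

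SERPINF1 (ENSG00000132386; chromosome 17, 1761959 to 1777574), which encodes PEDF, was at 0.67, 0.58 and 0.40 FPKM in Era, against 0.46, 0.91 and 0.72 FPKM in Era+VK. The higher Era+VK values were those of replicates 2 and 3, the libraries with globin transcripts, and replicate 1 lay within the Era range. It was not tested in limma, and the exact permutation test gave a two-sided p of 0.4.

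The levels of ligand and inhibitor were also set against each other within each library. VEGFA was at 26.1, 28.2 and 44.6 times the FPKM of SERPINF1 in Era, and at 32.4, 15.0 and 19.9 times in Era+VK. The log2 ratio was 5.0 ± 0.417 in Era and 4.41 ± 0.564 in Era+VK (SD, n = 3 each), and the groups overlapped. The difference of -0.59 was 0.02 when Era+VK was represented by replicate 1 alone. THBS1 was at 3.45 to 3.79 times the FPKM of VEGFA in Era and at 3.62 to 3.98 times in Era+VK. With VEGFA and THBS1 both lower in Era+VK, their log2 ratio moved by -0.08, from -1.85 ± 0.0709 to -1.93 ± 0.0692 (SD, n = 3 each), with overlapping groups. This difference of -0.08 was -0.010 with Era+VK replicate 1 alone.

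The remaining genes of the pathway were examined in 7 lists with 68 genes, of which 65 were listed and 38 tested. ATF4 and EPAS1 fell in Era+VK, and no gene of these lists rose (adjusted p under 0.05 in limma; background 0.484% lower and 0.134% higher). The lists were chosen with earlier results of these data known. The study had reported lower ATF4 target genes from the same libraries, so these calls are a description only. In all, 20 of the 38 were nominally higher and 18 lower, and 12 had groups that did not overlap, against 22.1% of all genes tested.

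Both of the genes that fell belong to the list of 17 factors that control VEGFA transcription or RNA stability, of which 14 were tested. EPAS1 (ENSG00000116016), which encodes the hypoxia-inducible factor HIF-2α, was at 26.34, 25.56 and 24.94 FPKM in Era, against 19.23, 18.73 and 21.04 FPKM in Era+VK. The groups were well apart, and the log2 fold change was -0.37 (95% interval -0.49 to -0.24, adjusted p = 0.0340 in limma). The call was lost with each single library left out except Era+VK replicate 3 (adjusted p in limma from 0.0408 to 0.177). It was also lost with a replicate block (0.0865) and with no filter on low values (0.121). Without both libraries with globin transcripts, which leaves a single Era+VK library, the difference of EPAS1 was -0.395. ATF4 (ENSG00000128272), the stress-induced transcription factor, was at 134.26, 138.59 and 145.67 FPKM in Era, against 88.18, 98.78 and 98.33 FPKM in Era+VK. Its log2 fold change was -0.55 (adjusted p = 0.0128 in limma, and 0.0645, 0.102 and 0.0738 without Era replicate 1, 2 or 3, and 0.0877 with no filter). The lowest ATF4 value was in Era+VK replicate 1. The difference was -0.66 without the libraries with globin transcripts, which leaves that library alone in its group. Over the tested genes of this list the median was -0.01, with 7 genes higher and 7 lower. HIF1A, which encodes the more widely expressed HIF-1α, was at 181 ± 6.87 FPKM in Era, against 170 ± 9.38 FPKM in the Era+VK group (SD, n = 3 each) with overlapping groups (adjusted p = 0.480 in limma). Their partner ARNT and the oxygen sensor EGLN1 had overlapping groups as well. Groups did not overlap for 6 of the 14 tested genes of the list, against 22.1% of all genes tested. Of these, ZFP36L1, named after its values were seen, was at 45.38 to 49.11 FPKM in Era. It was at 36.81 to 42.23 FPKM in Era+VK (adjusted p = 0.149 in limma).

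**Figure D3:**
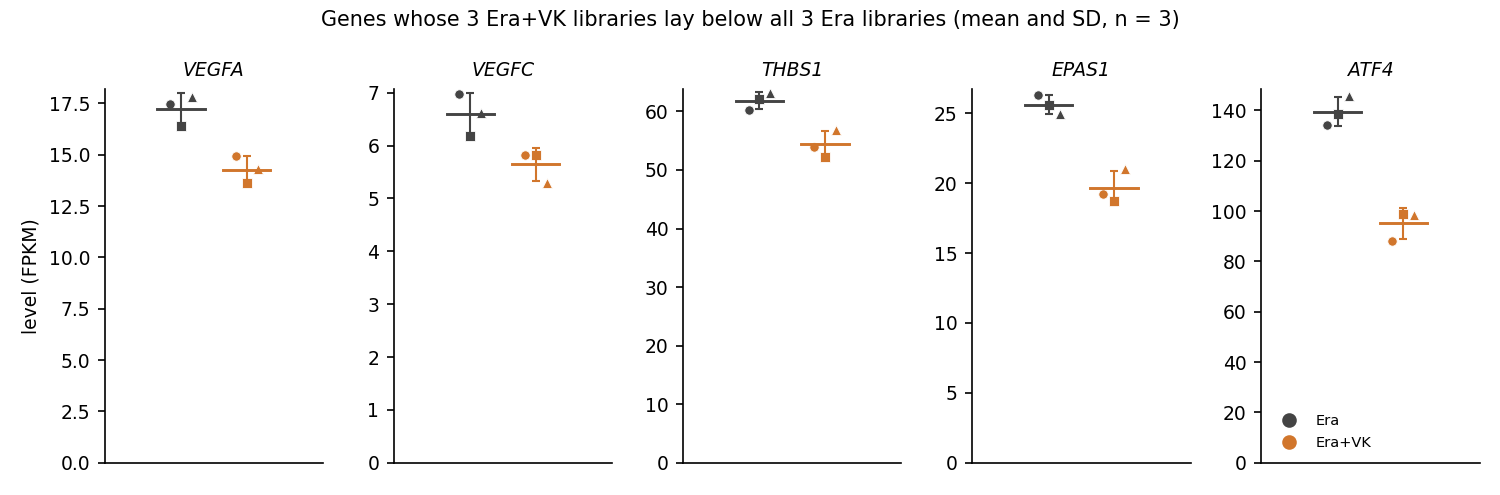
Level in FPKM (vertical axes from 0, with a different scale in each panel) of the members VEGFA, VEGFC and THBS1 and of EPAS1 and ATF4 in 3 Era (dark) and 3 Era+VK (orange) libraries, with the mean and SD (n = 3). In each panel the 3 Era+VK libraries lie below the 3 Era libraries, and EPAS1 and ATF4 had an adjusted p of 0.0340 and 0.0128 in limma with all 6 libraries, calls that each depend on the libraries and filter used.

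Of the other inhibitors, 8 of the 17 were tested and none passed, with 4 higher and 4 lower and a median log2 fold change of -0.01. The largest difference was that of ADAMTS1, a protease that binds VEGFA, at -0.39 on the log2(FPKM + 1) scale (95% interval -0.63 to -0.14, adjusted p = 0.158 in limma). VASH1, a feedback inhibitor made by endothelial cells, was named after its values had been seen because it lay nearest to the threshold. It was at 4.25, 4.11 and 4.16 FPKM in Era, against 5.71, 5.37 and 5.08 FPKM in Era+VK, 0.30 higher on the log2(FPKM + 1) scale (adjusted p = 0.0628 in limma). The abundant matrix inhibitors SPARC, TIMP3 and COL18A1, at over 50 FPKM in each library, had overlapping groups. Among 7 receptors of the inhibitors, 5 were tested, with a median log2 fold change of 0.09. The largest difference was that of the PEDF receptor gene PLXDC2 (0.18, adjusted p = 0.175 in limma). CD47, which binds thrombospondin 1, was at 6.0 to 6.24 FPKM in Era, against 6.89 to 6.99 FPKM in Era+VK (adjusted p = 0.173 in limma).

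In the list of 13 neuropilin partners, 7 were tested and none passed, with a median log2 fold change of -0.015. The semaphorin genes SEMA3C and SEMA3B were more abundant than any VEGF ligand, at 60.70 to 67.74 FPKM and at 62.55 to 73.17 FPKM, and both had overlapping groups. The largest difference in this list was -0.08 for SEMA3F (adjusted p = 0.659 in limma). Of 6 genes for the processing of VEGF, 4 were tested and none passed. ADAMTS14, a protease able to activate VEGFC, was at 0.800 ± 0.111 FPKM in Era and at 1.21 ± 0.147 FPKM in the Era+VK group (SD, n = 3 each). It reached the mean of 1 FPKM only through the Era+VK libraries and was left untested when any of them was left out, so its log2 fold change of 0.30 is given as a description. CCBE1, the cofactor for that activation, had a difference of -0.25 on the log2(FPKM + 1) scale (adjusted p of 0.142 in limma). The 6 genes of the angiopoietin and TIE system stayed below 1 FPKM, and none was tested.

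**Figure D4:**
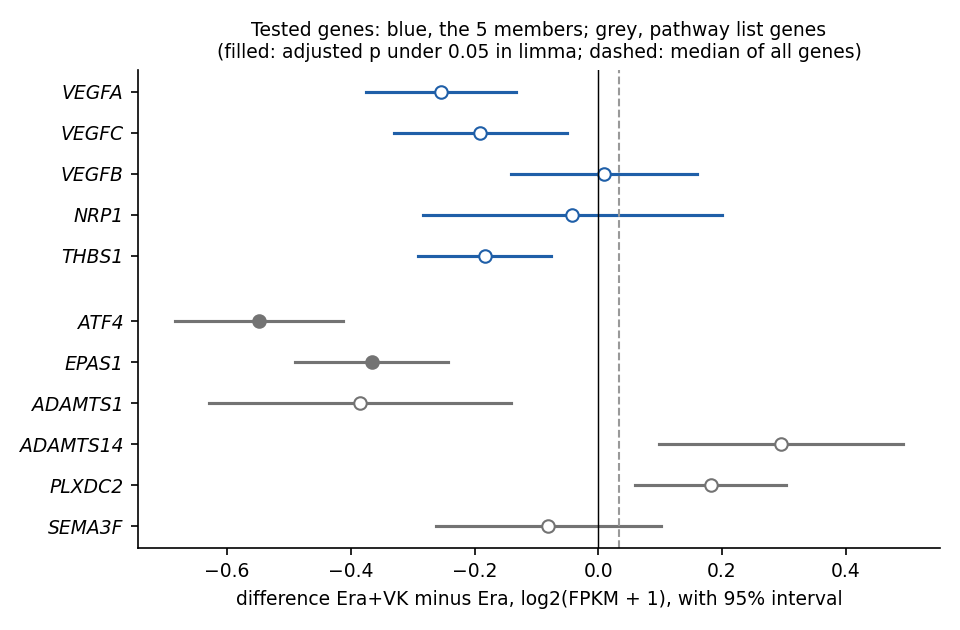
Difference between Era+VK and Era on the log2(FPKM + 1) scale (horizontal axis) with its 95% interval, for the 5 tested members (blue) and the genes named by rule from the pathway lists (grey); filled points passed the test, and the dashed line is the median of all genes tested (0.03). The intervals of VEGFA, VEGFC and THBS1 lie below 0 but their adjusted p in limma is 0.0868, 0.20 and 0.139, while ATF4 and EPAS1 passed with all 6 libraries, and EPAS1 did not with a replicate block (0.0865). ADAMTS14 was tested only because of its Era+VK values.

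Gene Ontology terms given with the genes placed the members among larger groups. Of the 10, 8 are annotated to positive regulation of angiogenesis and 2, SERPINF1 and THBS1, to its negative regulation, so THBS1 is in both. In the first term, 39 of 74 tested genes were lower in Era+VK, with a median log2 fold change of -0.02. In the second, 22 of 44 were lower, with a median near 0. In the term for VEGF receptor signaling, 12 of 19 were lower, with a median of -0.03 and no gene past the threshold. In the term angiogenesis, 79 of 148 were lower, with a median of -0.01. There CCN3, EPAS1, ITGA5 and WARS1 (lower) and CYP1B1 (higher) passed in limma. For all genes tested, 36.7% were lower. Past the threshold in limma were CYP1B1 (higher) and ANXA3 (lower) in the first term, and SARS1 and TGFB2, both lower, in the second, against 0.618% of all genes tested (0.134% higher and 0.484% lower). These terms were looked up after the values were known, and are described with no test.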

How the data were processed

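RNA of 6 libraries was sequenced as paired ends on an Illumina instrument. The authors deposited FPKM values with 2 decimals per gene and library. The submitters' processing notes name cutadapt, HISAT2 and StringTie 2.1.6, and the mouse build mm10, whereas the gene identifiers are human; the annotation and the use of strand are not given in the sources used here. The labels count the cell line upwards from ARPE-19, while every title says ARPE-19. Whole reads could not be recovered from the low values. The depth is therefore unknown, and no count model was used.

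Genes averaging 1 FPKM or more were kept. The fit used limma 3.58.1 (R 4.3.3) and log2(FPKM + 1), without a replicate term. In simulated data of Era+VK against Era over 11981 genes, it called 82 of 100 genes changed by 0.5 and 99 of 100 changed by 1 on the log2 scale, with 7 unchanged genes. Changes smaller than 0.5, such as those of VEGFA, VEGFC and THBS1, were not simulated. Positions are from GENCODE 29, matched by identifier. The text names all members and, of each pathway list, the genes past the threshold and the largest difference. Members, lists and tests were chosen with earlier results of these data known. Alternatives were another pseudocount, other filters, quantile normalization, rescaling without mitochondrially encoded genes, a replicate block and libraries left out.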

Additional observations from a re-analysis of the deposited data

How the results depend on the processing

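Under the 13 alternatives tried, VEGFA, VEGFC and THBS1 kept their direction. With more than a single Era+VK library in the fit, the count of members past the threshold stayed at 0. In those fits the adjusted p of VEGFA in limma ranged from 0.0696 to 0.255. In limma it was 0.158 to 0.399 for VEGFC and 0.119 to 0.354 for THBS1. The log2 fold change of VEGFB turned to -0.015 with quantile normalization and to -0.013 with rescaling, and ranged from -0.044 (without Era+VK replicate 1) to 0.050 with single libraries left out; it was -0.030 without Era replicate 2, and 0.116 without both libraries with globin transcripts. That of NRP1 ranged from -0.135 to 0.042 (without Era replicate 2), and was 0.021 without Era+VK replicate 3.

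Over all genes, 74 calls became 1 with no filter on low values (31325 genes tested), 122 with a minimum of 1 FPKM in every library and 112 with quantile normalization. They ranged from 2 to 71 with single libraries left out: 3, 2 and 5 without Era replicate 1, 2 or 3, and 42 without Era+VK replicate 3. The share of calls that were higher in Era+VK was 21.6%, and was 43.7% without Era+VK replicate 1 and 0% without Era replicate 1 or 2. The 2 pathway list genes called became 0 with no filter and 0 to 2 with single libraries left out. The log2 ratio difference of VEGFA to SERPINF1 became 0.018, and that to THBS1 became -0.010, without both libraries with globin transcripts. In that setting Era+VK is a single library, so its own spread cannot be seen. A limma fit there takes the spread from Era alone, so only differences are given for it. With single libraries left out these differences ranged from -0.893 to -0.335 and from -0.123 to -0.053. The causes were not tested.

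The libraries share replicate numbers, and whether these numbers mark pairs was not settled. The correlation of deviations from the group means was 0.071, 0.103 and 0.021 for the same numbers. For other numbers it lay between -0.114 and 0.04, and 5 of 6 libraries correlated best with their own number. With the replicate block, 42 genes and 1 pathway list gene passed, EPAS1 had an adjusted p of 0.0865 in limma, and no member passed. FPKM carry no depth, so small differences of genes below 1 FPKM cannot be judged.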
